A study of Mus musculus with 16 samples.

Results

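The 9 genes described here encode the enzymes that make serine (Phgdh, Psat1 and Psph), exchange serine and glycine (Shmt1 and Shmt2), carry the resulting 1-carbon units on folate (Mthfd1, Mthfd2 and Mthfd1l) and cleave glycine (Gldc). They were taken by name from 19938 mouse genes, and all 9 had a probe set assigned to no other gene. Their RNA was measured on 16 Affymetrix arrays of tissue from mice whose cells carry reprogramming factors under the control of doxycycline, and of embryonic stem (ES) cells. Transplanted secondary kidney tumors (3 arrays) had grown under the skin of immunodeficient mice. Primary kidney tumors (3 arrays) came from mice given doxycycline for 7 days from 4 weeks of age and were taken 7 days after its withdrawal. Their control was age-matched normal kidney (3 arrays). Liver tumors (3 arrays) were primary tumors of such mice, for which the labels give no age or dosing of their own, and normal liver (3 arrays) was set beside them. ES cells (1 array) were of the 129xC57BL6 F1 background. The animals had been generated from an ES cell line, so cells descended from it were of that F1 background or a mixture of its parent strains. Tumors arose in chimeras and can hold ICR host cells, per the labels. The labels name neither the alleles nor the promoter that drives the factors, and they do not say whether the 3 arrays of a group came from separate animals.

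Cells make serine from the glycolytic intermediate 3-phosphoglycerate in 3 steps. Serine hydroxymethyltransferase then moves a carbon from serine to tetrahydrofolate and leaves glycine, in the cytosol (Shmt1) and in mitochondria (Shmt2). In mitochondria the carbon is oxidised by Mthfd2 and released as formate by Mthfd1l. In the cytosol Mthfd1 takes formate up again for the synthesis of purines and thymidylate. Mthfd2 is best known as an enzyme of embryonic and transformed cells that is low in most adult tissues. Gldc is the decarboxylase of the mitochondrial glycine cleavage system, which is active in liver and kidney.

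Array medians lay between 191 and 226 intensity units as deposited, and levels below are log2 of these intensities. A log2 difference of 1 is a doubling of intensity. Levels of different genes come from different probes and are not set against each other. A gene was called where limma's adjusted p was under 0.05 over all 19938 genes. The labelled tissues had their markers. The summed intensity of 10 kidney tubule genes ran from 77787 to 80129 in normal kidney and from 2679 to 9521 in normal liver. The sum of 9 hepatocyte genes ran from 25843 to 26653 in normal kidney and from 102404 to 103709 in normal liver, and 10 ES cell genes summed to 47846 in the ES cell array. Kidney tumors held 21917 to 42950 units of the tubule genes and secondary tumors 1677 to 2272. Liver tumors held 68202 to 94420 units of the hepatocyte genes. Several arrays stood apart. Xist, the RNA of the inactive X chromosome, read 10.84 and 10.19 in kidney tumors 2 and 3 and 10.45 and 11.35 in liver tumors 2 and 3, against at most 6.31 on the other tumor and normal arrays. Adipocyte genes (6 genes) summed to 9838 in normal kidney 2, 10552 in normal liver 1 and 8080 in secondary tumor 1, against at most 1817 on every other array.

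The promoters of the 4 members that rose in all 3 kinds of tumor are shown because these genes share that direction of change from normal tissue. Each stretch is the 250 bases before the annotated transcription start, from RefSeq on GRCm38.p6, 5′ to 3′ on the gene's strand, with CCAAT or its complement ATTGG in capitals. All 9 members had an entry. Phgdh lies at chr3:98339970-98340219 and Psat1 at chr19:15925060-15925309, both on the minus strand. Mthfd2 lies at chr6:83317605-83317854 on the minus strand and Mthfd1l at chr10:3972825-3973074 on the plus strand. Psat1 had 2 starts in the table, of which the one at the gene's annotated 5′ end is shown.
Phgdh: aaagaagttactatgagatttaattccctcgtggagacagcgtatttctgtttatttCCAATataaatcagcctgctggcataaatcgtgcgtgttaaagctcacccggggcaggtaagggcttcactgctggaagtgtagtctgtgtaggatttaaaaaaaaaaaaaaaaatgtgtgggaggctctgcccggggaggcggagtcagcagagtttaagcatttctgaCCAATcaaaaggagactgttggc
Psat1: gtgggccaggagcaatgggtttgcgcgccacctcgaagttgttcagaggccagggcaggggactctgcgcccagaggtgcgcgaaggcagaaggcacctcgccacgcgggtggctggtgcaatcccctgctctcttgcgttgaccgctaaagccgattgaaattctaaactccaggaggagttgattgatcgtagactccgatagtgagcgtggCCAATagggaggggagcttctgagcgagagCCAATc
Mthfd2: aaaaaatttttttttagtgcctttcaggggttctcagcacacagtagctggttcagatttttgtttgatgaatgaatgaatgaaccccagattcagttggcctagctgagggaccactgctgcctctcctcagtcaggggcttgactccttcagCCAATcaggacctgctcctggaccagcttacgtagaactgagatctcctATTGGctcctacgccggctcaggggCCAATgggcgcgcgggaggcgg
Mthfd1l: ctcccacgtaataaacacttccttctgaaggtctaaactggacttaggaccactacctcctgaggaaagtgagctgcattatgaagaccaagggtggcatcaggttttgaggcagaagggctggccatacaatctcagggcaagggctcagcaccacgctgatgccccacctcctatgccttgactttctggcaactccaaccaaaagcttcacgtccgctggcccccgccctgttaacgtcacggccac
Phgdh had the letters CCAAT 193 and 23 bases before its start and Psat1 36 and 6 bases before it. Mthfd2 had matches at 96, 47 and 22 bases, and Mthfd1l had none. CCAAT was found on either strand in 7 of the 9 members, also in Mthfd1 and Gldc, whose levels did not rise in any tumor, and in 33.8% of 32851 windows of the same length. The GC box GGGCGG was in 5 of the 9 members and 32.7% of windows. The E-box CACGTG, bound by Myc and related factors, was in 0 of the 9 and 6.02% of windows, and the amino acid response core TGATGNAA in 0 of the 9 and 3.45%. No match of one motif overlapped a match of another in the members, and both strands were searched for each. A match describes letters only.

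Phgdh and Psat1, which catalyse the first and the second step of serine synthesis, were higher in every kind of tumor than in its normal tissue. Phgdh, the dehydrogenase, read 9.31, 9.33 and 9.61 in secondary kidney tumors 1, 2 and 3, against 7.93, 8.22 and 8.39 in normal kidney. In primary kidney tumors it read 8.74, 9.39 and 9.58. All 6 kidney tumor arrays were above all 3 normal kidney arrays, and primary tumor 1 was the lowest of them. The change was 1.24 ± 0.20 log2 units in secondary tumors (SE, n = 3 each; limma adjusted p 0.000145) and 1.06 ± 0.20 in primary tumors (adjusted p 0.000751). Without kidney tumors 2 and 3, the arrays with Xist, the primary change was 0.56 and did not pass (adjusted p 0.0838). In liver tumors Phgdh read 9.15, 8.93 and 8.61, against 7.65, 7.39 and 7.57 in normal liver, with no overlap. It rose there by 1.36 ± 0.20 (adjusted p 0.000152). A second probe set matches Phgdh and the predicted gene Gm6756 together and was left out. Because the samples are bulk tissue, more cells that express a gene and more RNA per cell cannot be told apart here or in any result that follows.

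Psat1, the aminotransferase, read 10.85, 10.77 and 11.04 in secondary and 11.21, 10.99 and 11.11 in primary kidney tumors, against 9.86, 10.18 and 9.93 in normal kidney. The tumor arrays lay within a narrow band above the normal ones. It rose by 0.89 ± 0.20 in secondary tumors (adjusted p 0.00141) and by 1.11 ± 0.20 in primary tumors (adjusted p 0.000395). The liver showed a larger step. Psat1 read 11.06, 10.79 and 10.34 in liver tumors, against 8.34, 7.81 and 8.55 in normal liver, and rose by 2.49 ± 0.20 (adjusted p 1.13e-06), a 5.64-fold difference. Normal liver was thus the lowest group for Psat1, and the tumors of both organs had overlapping levels.

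Psph, the phosphatase of the last step, was not called in any of the 3 tumor comparisons. Its mean was 8.43 ± 0.14 in secondary kidney tumors, 8.52 ± 0.14 in primary kidney tumors and 8.63 ± 0.12 in normal kidney (SD, n = 3). Liver tumors had a mean of 8.39 ± 0.27, against 8.42 ± 0.14 in normal liver. The ranges of tumor and normal arrays overlapped in both organs. The differences from normal tissue were -0.20 ± 0.13 in secondary kidney tumors, -0.10 ± 0.13 in primary kidney tumors and -0.02 ± 0.13 in liver tumors (SE). The ES cell array, at 9.41, stood above all 15 tissue arrays.

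**Figure D1:**
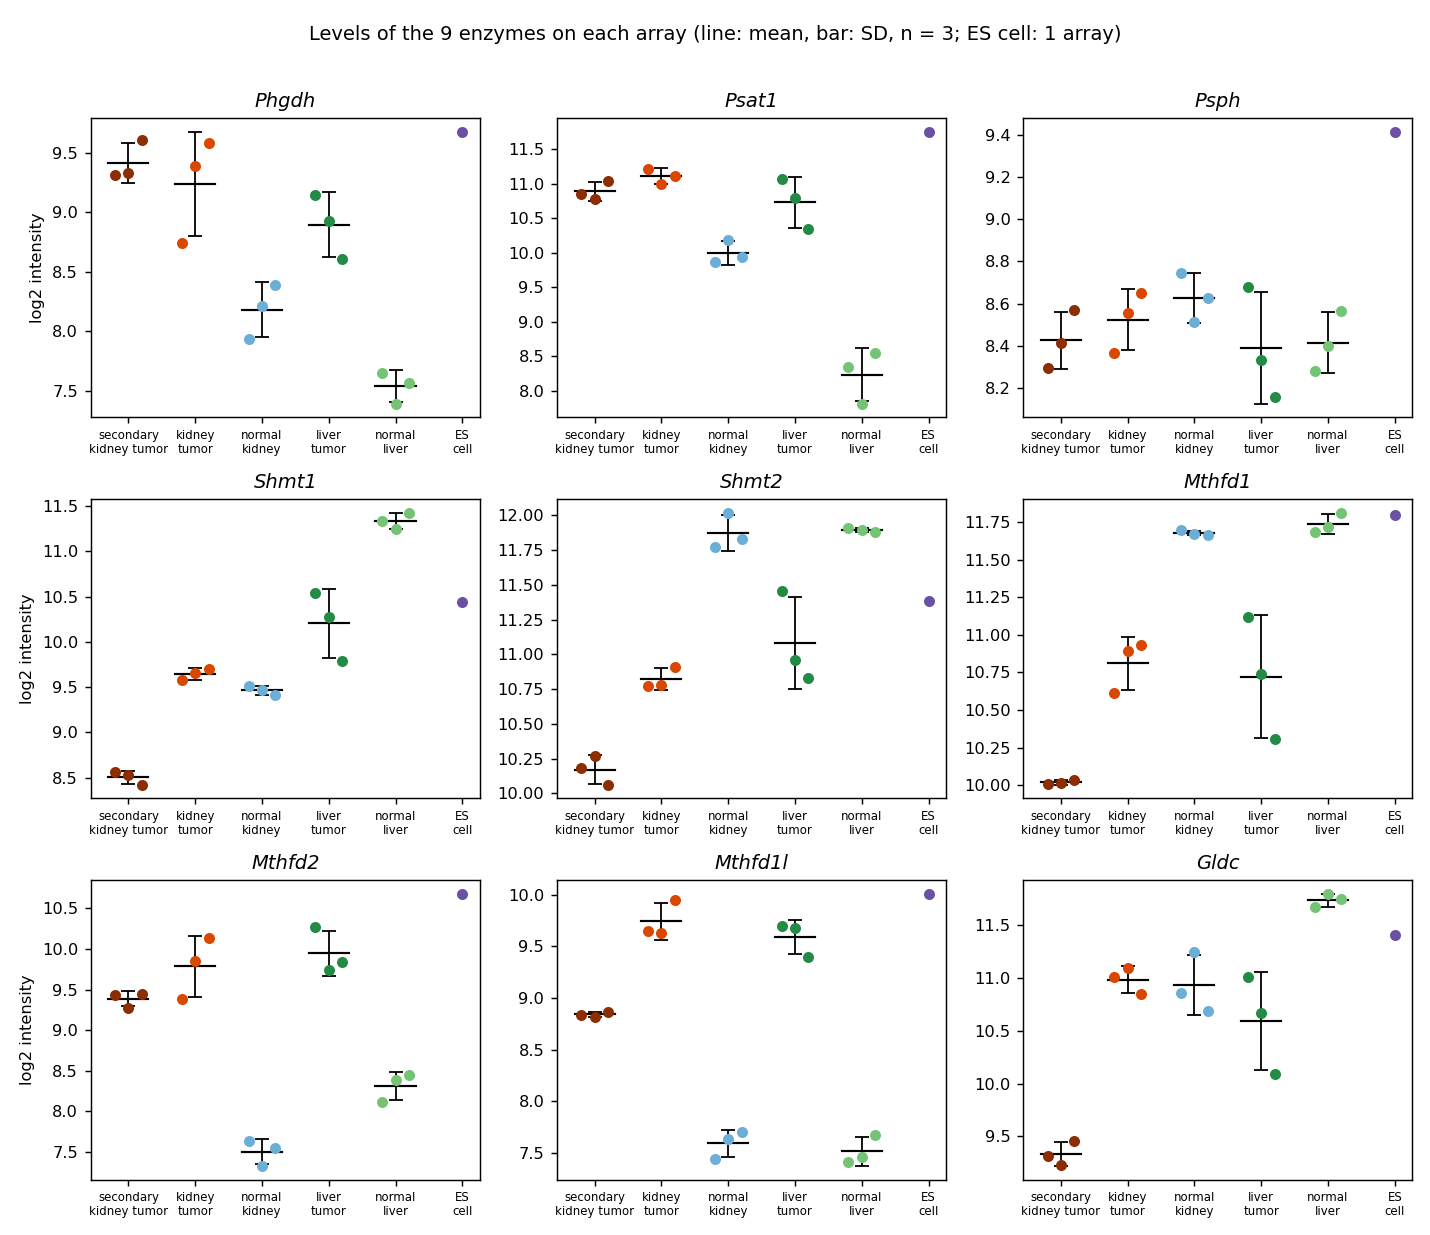
Levels of the 9 enzymes as log2 intensity (vertical axes, each with its own range) on every array, grouped by tissue, with black lines for group means and bars for the SD of 3 arrays. Mthfd1l lies between 8.82 and 9.95 on all kidney and liver tumor arrays and between 7.41 and 7.70 on all normal arrays, while Shmt2 and Mthfd1 lie lower in every tumor group than in its normal tissue.

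Mthfd2 and Mthfd1l, the mitochondrial Mthfd enzymes among the members, rose more than 2-fold in each kind of tumor. Mthfd2, the dehydrogenase and cyclohydrolase, read 9.43, 9.28 and 9.44 in secondary and 9.38, 9.85 and 10.13 in primary kidney tumors, against 7.63, 7.33 and 7.56 in normal kidney. The lowest tumor array stood well above the highest normal one. The change was 1.88 ± 0.18 in secondary tumors (SE, n = 3 each; adjusted p 1.15e-06) and 2.28 ± 0.18 in primary tumors (adjusted p 8.29e-07). In primary tumors this is a 4.86-fold difference. In liver tumors Mthfd2 read 10.26, 9.74 and 9.84, against 8.12, 8.38 and 8.45 in normal liver, a change of 1.63 ± 0.18 (adjusted p 1.47e-05). Again no arrays overlapped.

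Mthfd1l, the formyltetrahydrofolate synthetase that releases formate, behaved alike on the arrays of a group. It read 8.84, 8.82 and 8.86 in secondary and 9.65, 9.63 and 9.95 in primary kidney tumors, against 7.44, 7.64 and 7.70 in normal kidney. Secondary tumors therefore lay between the other kidney groups with no overlap on either side. The change from normal kidney was 1.25 ± 0.11 in secondary tumors (adjusted p 7.37e-07) and 2.15 ± 0.11 in primary tumors (adjusted p 4.94e-08). Liver tumors read 9.69, 9.68 and 9.40, against 7.41, 7.46 and 7.67 in normal liver, a change of 2.08 ± 0.11 (adjusted p 6.4e-08). Mthfd2l, the paralog of Mthfd2 and not a member, rose as well, by 1.83 ± 0.23 in secondary kidney tumors, 1.62 ± 0.23 in primary kidney tumors and 1.71 ± 0.23 in liver tumors. Aldh1l2, another mitochondrial folate enzyme, rose by 0.92 ± 0.21 in secondary kidney tumors and 0.74 ± 0.21 in liver tumors and was at -0.06 ± 0.21 in primary kidney tumors, where it did not pass.

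Mthfd1 and Shmt2 fell where Mthfd2 and Mthfd1l rose. Mthfd1, the cytosolic enzyme with 3 activities on folate, read 10.01, 10.01 and 10.04 in secondary and 10.61, 10.89 and 10.93 in primary kidney tumors, against 11.69, 11.67 and 11.66 in normal kidney. It changed by -1.66 ± 0.15 in secondary tumors (SE, n = 3 each; adjusted p 8.82e-07) and by -0.87 ± 0.15 in primary tumors (adjusted p 0.000432). In liver tumors Mthfd1 read 11.12, 10.74 and 10.31, against 11.68, 11.72 and 11.81 in normal liver. The liver change was -1.01 ± 0.15 (adjusted p 0.000172), and -0.62 with liver tumor 1 alone, which had no Xist signal (adjusted p 0.00277). Tumor and normal arrays did not overlap in either organ.

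Shmt2, the mitochondrial hydroxymethyltransferase, read 10.18, 10.27 and 10.06 in secondary and 10.78, 10.78 and 10.91 in primary kidney tumors, against 11.77, 12.02 and 11.83 in normal kidney. The groups formed separate steps. The changes were -1.70 ± 0.13 in secondary tumors (adjusted p 1.83e-07) and -1.05 ± 0.13 in primary tumors (adjusted p 2.89e-05). Liver tumors read 11.45, 10.96 and 10.83, against 11.91, 11.89 and 11.88 in normal liver, a change of -0.81 ± 0.13 (adjusted p 0.000293). Liver tumor 1 was nearest to normal liver, and with it as the only liver tumor the change was -0.44 (adjusted p 0.0153). Shmt2 thus fell in the same tumors in which Mthfd2, which acts on its product, was higher than in normal tissue.

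Shmt1, the cytosolic hydroxymethyltransferase, changed in secondary kidney tumors and in liver tumors. It read 8.56, 8.53 and 8.42 in secondary tumors, against 9.51, 9.47 and 9.41 in normal kidney, a change of -0.96 ± 0.14 (SE, n = 3 each; adjusted p 5.92e-05). Primary kidney tumors read 9.57, 9.66 and 9.70. They did not overlap with normal kidney, but the difference of 0.18 ± 0.14 did not pass (adjusted p 0.299). Liver tumors read 10.54, 10.28 and 9.79, against 11.33, 11.24 and 11.42 in normal liver. The liver change was -1.13 ± 0.14 (adjusted p 3.97e-05), with all tumor arrays below all normal ones.

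Gldc changed in the same tumors as Shmt1. It read 9.32, 9.23 and 9.46 in secondary kidney tumors, against 10.86, 11.25 and 10.69 in normal kidney, a change of -1.60 ± 0.19 (SE, n = 3 each; adjusted p 9.86e-06). Primary kidney tumors, at 11.01, 11.09 and 10.85, overlapped with normal kidney, and their difference was 0.05 ± 0.19 (adjusted p 0.834). Liver tumors read 11.01, 10.67 and 10.09, against 11.67, 11.79 and 11.74 in normal liver. The liver change of -1.14 ± 0.19 passed (adjusted p 0.000386), and was -0.72 with liver tumor 1 alone (adjusted p 0.013). The partners of Gldc in glycine cleavage fell in all 3 kinds of tumor. Amt, the aminomethyltransferase, changed by -1.60 ± 0.16 in secondary kidney tumors, -0.89 ± 0.16 in primary kidney tumors and -1.42 ± 0.16 in liver tumors. Gcsh, the lipoyl carrier, changed by -0.55 ± 0.13, -0.42 ± 0.13 and -0.57 ± 0.13 in the same tumors. Dld, a dehydrogenase shared with other mitochondrial complexes, changed by -1.81 ± 0.16, -1.28 ± 0.16 and -0.91 ± 0.16. In primary kidney tumors, then, the partners passed the test and Gldc did not.

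**Figure D2:**
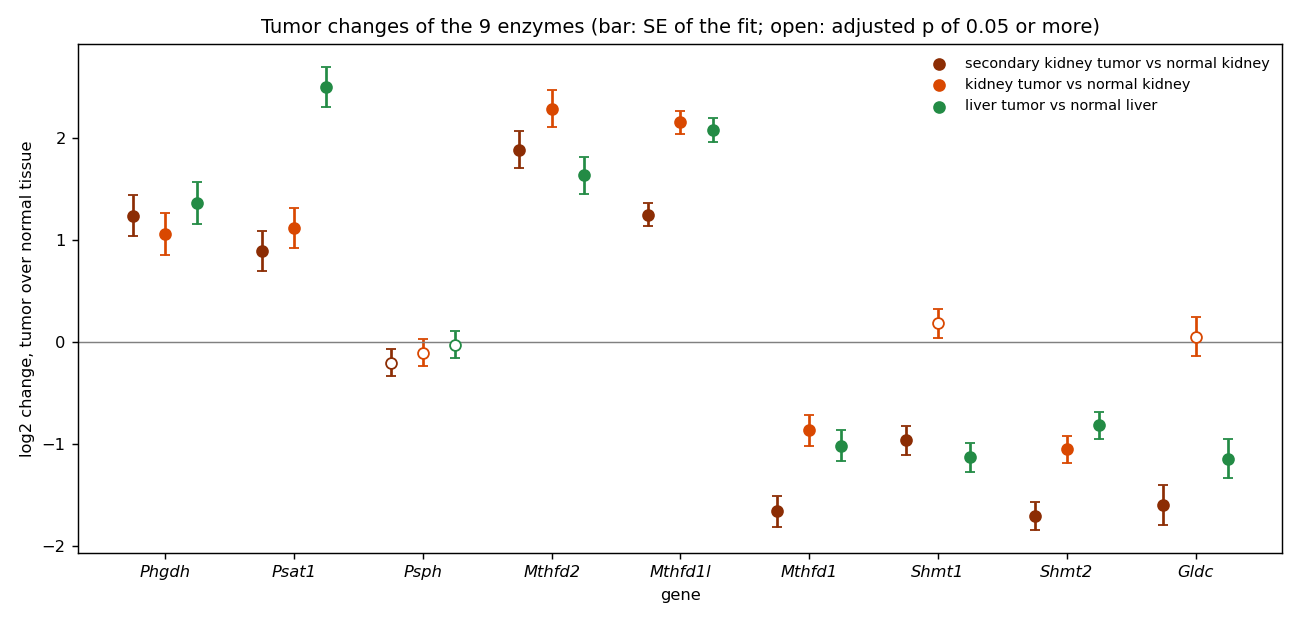
Log2 change of each enzyme from normal tissue (vertical axis) in secondary kidney tumors, primary kidney tumors and liver tumors, with the SE of the fit as bars and open circles where the adjusted p was not under 0.05. Phgdh, Psat1, Mthfd2 and Mthfd1l lie above 0 in all 3 comparisons, Mthfd1 and Shmt2 lie below 0 in all 3, and Psph is open throughout.

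Counted together, 4 members rose and 4 fell in secondary kidney tumors against normal kidney, so that 8 of 9 were called where 68.6% of all genes were (29.9% higher and 38.7% lower). In primary kidney tumors 4 rose and 2 fell, 6 of 9 beside 49.8% of all genes (21.7% higher and 28.1% lower). In liver tumors 4 rose and 4 fell, 8 of 9 beside 52.3% of all genes (21.5% higher and 30.7% lower). The shares of members called in secondary and in primary kidney tumors are thus not far from those of all genes. The median change of the members was -0.20 in secondary kidney tumors, 0.18 in primary kidney tumors and -0.02 in liver tumors, beside -0.12, -0.11 and -0.13 over all genes. With each array centred on its median, the medians over all genes were -0.33, -0.221 and -0.235, and none of the members' calls listed above was lost or turned. That centring also moved the share of higher calls among the called genes, a base other than all genes. It was 30.6% against 43.6% for secondary kidney tumors, 30.3% against 43.6% for primary kidney tumors and 29.3% against 41.2% for liver tumors. The 2 kidney comparisons share the same normal kidney arrays. Genes that mark other cells or cell division changed in the same comparisons. All 11 proliferation genes rose in each kind of tumor, and their summed intensity was 24919 to 26786 in secondary kidney tumors, 21570 to 34774 in primary kidney tumors and 3267 to 3669 in normal kidney. Liver tumors had 21399 to 29393 units, against 8950 to 15169 in normal liver. Hepatocyte genes summed to 94420, 68202 and 68857 in liver tumors 1, 2 and 3, all below normal liver, and tubule genes to 42950, 34371 and 21917 in kidney tumors 1, 2 and 3, all below normal kidney. Of 10 ES cell genes, 8 rose in secondary kidney tumors, 6 in primary kidney tumors and 6 in liver tumors. Of 8 myeloid genes 5, 7 and 6 rose, in the same order of tumors. Of 10 neural and glial genes 10, 8 and 5 rose, and of 8 fibroblast genes 7, 3 and 1. Some genes of these lists fell. They were 1 ES cell gene in each kind of kidney tumor, 1 myeloid gene in primary kidney tumors and 2 neural and glial genes in liver tumors. Of 6 endothelial genes none rose, and 5 fell in secondary and 2 in primary kidney tumors. The shares of all genes that rose and fell are those given above. Myeloid genes summed to 7212 to 12955 in secondary kidney tumors, 8090 to 9350 in primary kidney tumors and 2574 to 3264 in normal kidney, and to 7592 to 11657 in liver tumors, against 3853 to 4468 in normal liver. ES cell genes summed to 5589 to 7837 in secondary kidney tumors, 7351 to 9877 in primary kidney tumors and 1176 to 1299 in normal kidney, and to 4400 to 9257 in liver tumors, against 979 to 1004 in normal liver. The part of these cells in the members' changes was not tested.

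Secondary kidney tumors were set against primary kidney tumors to see what differed after transplantation. No member rose and 5 of 9 fell, beside 36% of all genes called (18.5% higher and 17.4% lower). Gldc changed most, by -1.65 ± 0.19 (SE, n = 3 each; adjusted p 2.23e-05), followed by Shmt1 at -1.14 ± 0.14 (adjusted p 3.69e-05) and Mthfd1l at -0.90 ± 0.11 (adjusted p 4.26e-05). Mthfd1 changed by -0.79 ± 0.15 (adjusted p 0.00134) and Shmt2 by -0.65 ± 0.13 (adjusted p 0.00185). For these 5 genes every secondary array was below every primary array. Phgdh at 0.18 ± 0.20, Psat1 at -0.22 ± 0.20, Psph at -0.10 ± 0.13 and Mthfd2 at -0.40 ± 0.18 did not pass. Against kidney tumor 1 alone, Mthfd1 lost its call (-0.59, adjusted p 0.068) and Phgdh gained one (0.67, adjusted p 0.0424), while the Mthfd2 difference was 0.00. Mthfd2 passed without kidney tumor 1 (-0.60, adjusted p 0.013) and with centred arrays (-0.49, adjusted p 0.0462). All 10 kidney tubule genes fell between the same groups, by a median of -3.99. Of 10 neural and glial genes 8 rose, with a summed intensity of 29450 to 34741 in secondary and 7494 to 15024 in primary tumors, and all 6 keratinocyte genes and 6 of 8 fibroblast genes rose. Their part in the members' differences was not tested.

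The tumor change differed between the organs for 3 members, beside 16.8% of all genes called (7.54% higher and 9.26% lower). The difference is the change in kidney tumors minus the change in liver tumors. For Psat1 it was -1.38 ± 0.28 (SE; adjusted p 0.00456), the rise being 1.11 in kidney tumors and 2.49 in liver tumors. For Shmt1 it was 1.31 ± 0.20 (adjusted p 0.000806) and for Gldc 1.19 ± 0.27 (adjusted p 0.00982), neither of which passed in kidney tumors while both fell in liver tumors. The differences of Mthfd2 (0.65 ± 0.25, adjusted p 0.105), Phgdh (-0.30 ± 0.29), Shmt2 (-0.24 ± 0.19), Mthfd1 (0.15 ± 0.22), Psph (-0.08 ± 0.19) and Mthfd1l (0.07 ± 0.16) did not pass. All 11 proliferation genes also differed this way, by a median of 2.75, and lay lower in normal kidney than in normal liver. Their part was not tested. The calls of the members moved with the tumor arrays with Xist. Without kidney tumors 2 and 3 only Shmt1 passed, at 1.24 (adjusted p 0.015), while Psat1 was at -1.27 (adjusted p 0.0544) and Gldc at 1.22 (adjusted p 0.0612). With kidney tumor 1 and liver tumor 1 as the only tumors, Psat1 (-1.60, adjusted p 0.0211) and Shmt1 (0.90, adjusted p 0.00475) passed and Gldc did not (0.80, adjusted p 0.0953). Phgdh (-1.05, adjusted p 0.0357) and Shmt2 (-0.66, adjusted p 0.0343) then passed too, and Mthfd1 passed with the opposite sign (-0.45, adjusted p 0.0384).

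**Figure D3:**
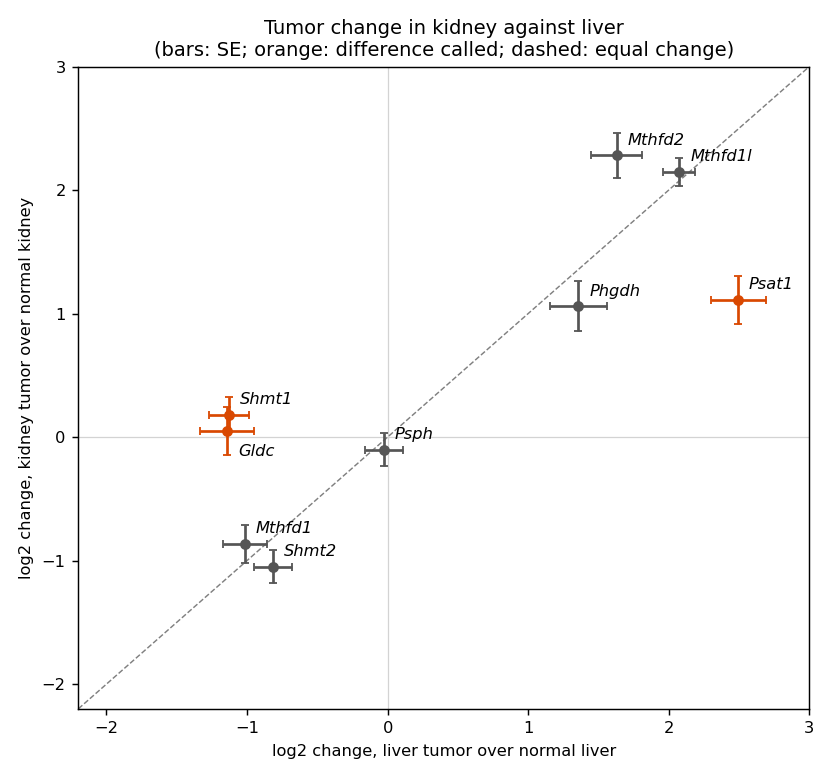
Log2 change of each enzyme in kidney tumors (vertical axis) against its log2 change in liver tumors (horizontal axis), with SE bars on both axes, a dashed line of equal change, and orange where the difference between organs was called. Psat1 lies below the line (1.11 in kidney, 2.49 in liver), Shmt1 and Gldc lie above it, and the other 6 enzymes are grey.

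The normal tissues themselves also differed. Normal kidney stood above normal liver for Psat1 by 1.76 ± 0.20 (SE, n = 3 each; adjusted p 9.94e-06) and for Phgdh by 0.65 ± 0.20 (adjusted p 0.0233). The call of Phgdh was lost without normal kidney 2 or 3 or normal liver 2 or 3 (adjusted p 0.0519 to 0.091). It stood below normal liver for Shmt1 by a log2 difference of -1.87 ± 0.14 (adjusted p 2.83e-07), for Mthfd2 by -0.81 ± 0.18 (adjusted p 0.00293) and for Gldc by -0.80 ± 0.19 (adjusted p 0.00506). These 5 of 9 members compare with 37.8% of all genes called (21.4% higher and 16.4% lower). Shmt2, Mthfd1, Mthfd1l and Psph did not pass, with differences between -0.06 and 0.21. Shmt2 averaged 11.87 ± 0.13 in normal kidney and 11.89 ± 0.02 in normal liver (SD, n = 3).

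Set in order over the 6 groups, Phgdh, Psat1, Mthfd2 and Mthfd1l had their highest level in the ES cell array and next in the tumors, and Psph had its highest there too. In Phgdh each tumor group overlapped with the tumor group next to it in the order, and the same held in Psat1 and Mthfd2. Secondary kidney tumors and liver tumors, not adjacent in Phgdh and Mthfd2, did not overlap there. No tumor group overlapped with the ES cell array or a normal tissue in these 3 genes. In Mthfd1l primary kidney tumors and liver tumors overlapped, as did the normal tissues, while secondary tumors stood apart. Shmt1 and Gldc were highest in normal liver and lowest in secondary kidney tumors. Shmt2 was lowest there too, and at its top normal liver and normal kidney overlapped. Mthfd1 was also lowest in secondary tumors, and at its top the ES cell array (11.79), normal liver and normal kidney could not be separated. The ES cell array had 1 sample and no test. It read 10.68 for Mthfd2, 11.75 for Psat1, 9.67 for Phgdh and 10.01 for Mthfd1l. For Shmt1 (10.44) and Shmt2 (11.38) it lay among the liver tumor arrays, and for Gldc (11.41) between normal liver and the kidney groups.

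The members were also compared with each other. The measure was the root mean square difference between log2 profiles over the 16 arrays, each gene centred on its own mean, and arrays of one tissue are not independent points. Shmt2 and Mthfd1 were the most alike of all 36 pairs, with a difference of 0.205, and Mthfd2 and Mthfd1l followed at 0.365. Gldc was nearly as close to Mthfd1 (0.386), and its difference from Shmt2 was 0.441. Over all genes, Phgdh was nearest to Msantd3 (0.193) and Sirt6 (0.204), against an SD of Phgdh itself of 0.778. Psat1 was nearest to Ctbp2 (0.272) and Phc1 (0.278) with an SD of 1.14, and Psph to Aarsd1 (0.0998) and Nupl2 (0.113) with an SD of 0.286. Shmt1 was nearest to the nucleoside transporter gene Slc29a1 (0.311) and to Pdia5 (0.312). The nearest to Shmt2 were Bola3 (0.157) and the mitochondrial chaperone gene Dnaja3 (0.159), and those to Mthfd1 were Foxred1 (0.186) and Ppif (0.187), all 4 encoding mitochondrial proteins. Mthfd2 was nearest to the separase gene Espl1 (0.232) and the replication helicase gene Mcm7 (0.234), and Mthfd1l to the nucleolar protein gene Npm1 (0.239) and to Cdca7l (0.242). For Gldc the closest, Dera (0.371) and Hook1 (0.378), were less close.

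Among the lists around the members, those of folate, glycine, serine breakdown, choline, methionine and transport held more genes that fell than rose in each kind of tumor, some at a share near that of all genes. The shares of all genes that fell were 38.7% in secondary kidney tumors, 28.1% in primary kidney tumors and 30.7% in liver tumors. Of 13 genes of folate uptake and interconversion, 3 rose and 9 fell in secondary kidney tumors, 1 rose and 10 fell in primary kidney tumors, and 2 rose and 6 fell in liver tumors. The folate receptor gene Folr1 fell by 3.46 in secondary and by 1.67 in primary kidney tumors. Folr2, another folate receptor gene, rose by 2.02 in secondary kidney tumors. Its arrays there varied widely, with a mean of 9.62 ± 1.36, against 7.60 ± 0.51 in normal kidney (SD, n = 3). In primary kidney tumors Folr2 averaged 7.29. Slc46a1, the proton-coupled folate transporter gene, changed by -1.66 ± 0.08 in primary kidney tumors (SE). In liver tumors Fpgs, which adds the glutamate tail that keeps folate in the cell, changed by -1.86 ± 0.19. The tumors of both organs thus had less RNA for several steps of folate handling while Mthfd2 and Mthfd1l were higher. Of 9 genes of glycine cleavage and disposal, 9 fell in secondary kidney tumors, 8 in primary kidney tumors and 7 in liver tumors, and none rose. Glyat, which joins glycine to acyl groups, changed by -6.89 ± 0.29 in secondary and -2.04 ± 0.29 in primary kidney tumors. Gnmt, which methylates glycine, changed by -2.09 ± 0.41 in liver tumors.

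Most genes of the lists of serine breakdown and choline oxidation also fell. Of 8 genes of serine breakdown and glyoxylate handling, 6 fell in secondary kidney tumors, 6 in primary kidney tumors and 8 in liver tumors. The list had 10 genes, but the serine dehydratase genes Sds and Sdsl had no probe set with their symbol. That step of serine breakdown was therefore not measured. Agxt2, a mitochondrial aminotransferase gene, changed by -5.32 ± 0.25 in secondary and -2.48 ± 0.25 in primary kidney tumors (SE, n = 3 each), and Hao1, the glycolate oxidase gene of liver, by -2.14 ± 0.23 in liver tumors. Of 6 genes on the choline list, 5 fell in secondary kidney tumors, 5 in primary kidney tumors and 6 in liver tumors. Pemt, which makes phosphatidylcholine and does not oxidise choline, was the gene not called in kidney. It averaged 7.53 in secondary and 7.74 in primary kidney tumors, against 7.61 in normal kidney. The other genes of the list act between choline and glycine. The mitochondrial dehydrogenase genes Dmgdh and Sardh, whose enzymes also feed carbon to folate, led here. Dmgdh changed by -4.94 ± 0.38 in secondary and -2.05 ± 0.38 in primary kidney tumors, and Sardh by -2.02 ± 0.28 in liver tumors. In the methionine cycle and transsulfuration, 10 of 11 genes fell in secondary kidney tumors, 6 in primary kidney tumors and 6 in liver tumors, where Mtr, the methionine synthase gene, and Mtrr, its reductase gene, rose by 0.73 ± 0.10 and 0.54 ± 0.13. Cbs, the first enzyme of transsulfuration and a consumer of serine, changed by -2.30 ± 0.26 in primary kidney tumors. Of 12 serine and glycine transporters, 1 rose and 6 fell in secondary kidney tumors, and 1 rose and 6 fell in primary kidney tumors. In liver tumors 2 rose and 4 fell, the falls at a share near that of all genes. The riser common to all 3 was Slc38a2, an amino acid transporter gene of many cell types, at 1.16 ± 0.10, 1.36 ± 0.10 and 0.58 ± 0.10. Slc6a19, a transporter gene of the kidney brush border, changed by -6.56 ± 0.29 in secondary kidney tumors. Tubule genes fell with it there, as given above.

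**Figure D4:**
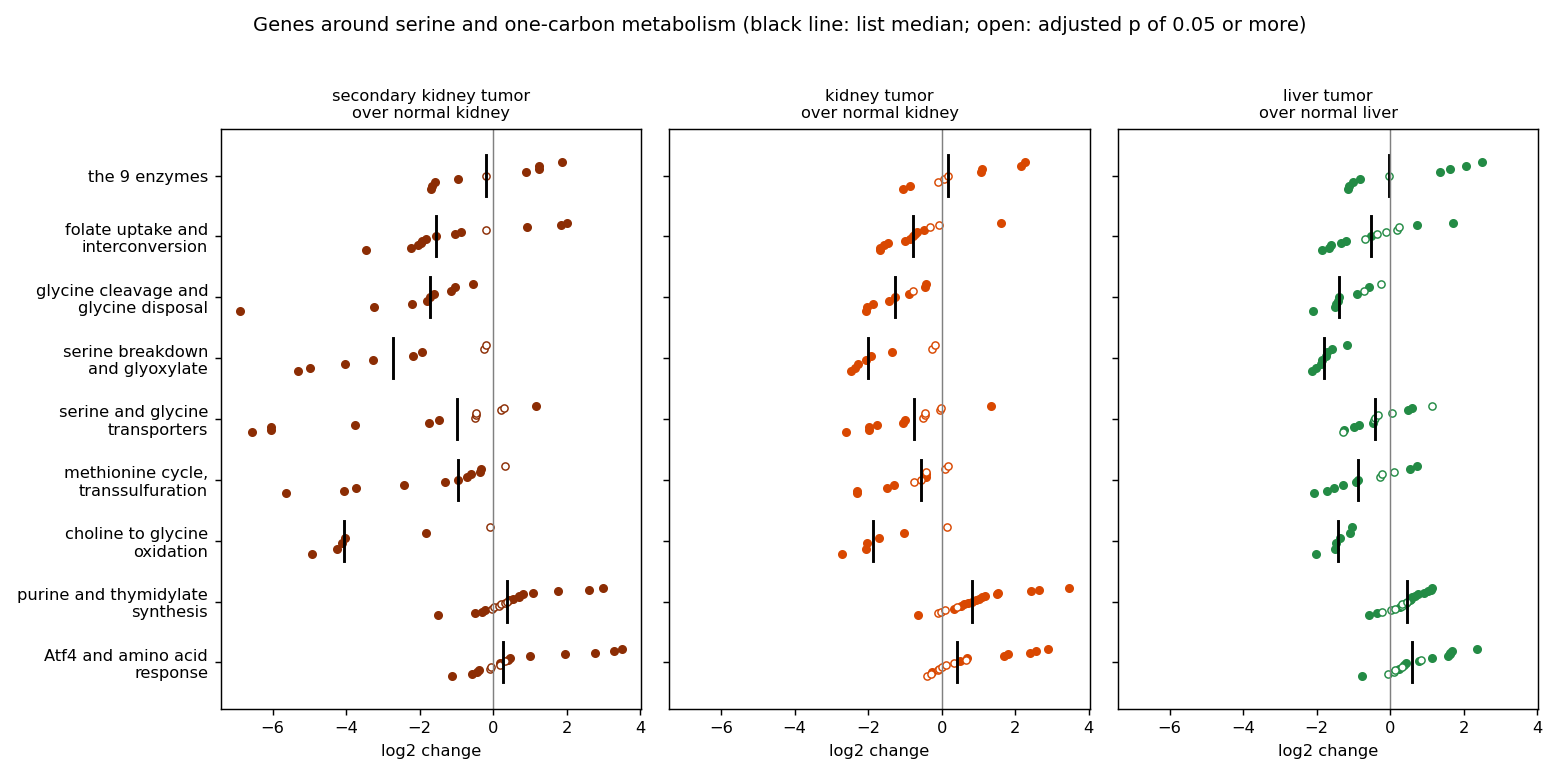
Log2 change from normal tissue (horizontal axis) of every gene in the 9 enzymes and 8 neighbouring lists, in secondary kidney tumors, primary kidney tumors and liver tumors, with black lines for list medians and open circles where the adjusted p was not under 0.05. Medians lie below -1 in all 3 panels for glycine disposal, serine breakdown and choline oxidation, and above 0 for nucleotide synthesis and the amino acid response.

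The list of nucleotide synthesis holds genes that use 1-carbon units and others that do not, such as Rrm2. Of 19 genes of purine and thymidylate synthesis, 9 rose and 4 fell in secondary kidney tumors, 14 rose and 1 fell in primary kidney tumors, and 11 rose and 2 fell in liver tumors. Among all genes, 29.9%, 21.7% and 21.5% rose and 38.7%, 28.1% and 30.7% fell, in the same order of tumors. The median changes of the 19 genes were 0.39, 0.82 and 0.47. Rrm2, a ribonucleotide reductase subunit gene, rose by 3.00 ± 0.27 in secondary kidney tumors, 3.45 ± 0.27 in primary kidney tumors and 1.11 ± 0.27 in liver tumors (SE, n = 3 each). Tyms, the thymidylate synthase gene, rose by 1.08 ± 0.23, 1.54 ± 0.23 and 0.57 ± 0.23, the last with an adjusted p of 0.0496. Between secondary and primary kidney tumors 10 of the 19 fell and none rose, beside 17.4% lower and 18.5% higher among all genes.

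Of 16 genes of the amino acid response, 8 rose and 4 fell in secondary kidney tumors. In primary kidney tumors 7 rose and 1 fell, and in liver tumors 10 rose and 1 fell. The shares of all genes that rose were 29.9%, 21.7% and 21.5%, in the same order of tumors. Atf4, the transcription factor known to drive Phgdh, Psat1 and Mthfd2 in other cells, rose by 0.46 ± 0.09 in secondary kidney tumors (adjusted p 0.000701), 0.70 ± 0.09 in primary kidney tumors (adjusted p 3.69e-05) and 0.25 ± 0.09 in liver tumors (adjusted p 0.0339). Its activity depends on translation, which these arrays do not measure. The amino acid transporter gene Slc7a5 rose by 3.51 ± 0.25, 2.89 ± 0.25 and 2.36 ± 0.25 in the same tumors. Trib3 and Sesn2, targets of the same response, changed by -0.58 and -1.13 in secondary kidney tumors. Of 6 genes named as regulators of serine synthesis, 4 rose and 1 fell in secondary kidney tumors. In primary kidney tumors 4 rose and in liver tumors 5, beside the same shares of all genes. Myc rose by 1.63 ± 0.25, 2.07 ± 0.25 and 1.89 ± 0.25. Mycn rose by 2.15 ± 0.17, 2.90 ± 0.17 and 2.36 ± 0.17. Myc is one of the usual reprogramming factors, the labels do not name those used, and a probe cannot separate a transgene from the endogenous gene where both hold the probed sequence.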

How the data were processed

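The deposited values were linear intensities of Affymetrix probe sets, and no label or header read for this work says how the authors normalized them. Their scale is linear from the values (20.7 to 20262), whether they were centred further is unknown, and no detection p accompanied them. Log2 was taken without further scaling. Of 28856 probe sets, 21789 had 1 gene symbol in the platform annotation of 2016, 1621 several and 5446 none. Probe sets with 1 symbol were used, the one of highest mean per gene (19938 genes).

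limma 3.58.1 in R 4.3.3 was fitted with 1 coefficient per group over all 16 arrays (10 residual and 2.66 prior degrees of freedom), 2-sided, Benjamini-Hochberg adjusted over all genes, for 6 comparisons. The fit was checked on simulated data. The number of arrays limits precision, p-values measure the spread between these arrays, which may be technical, and the pooled error is too small for a group that varies more. The members, lists and alternatives were chosen with earlier results of these data known. From each neighbouring list the text names at most the 2 called genes of largest change per direction and comparison, besides Amt, Gcsh, Dld, Mthfd2l, Atf4, Myc, Mycn and Tyms, and for likeness the 2 nearest genes.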

Additional observations from a re-analysis of the deposited data

Results flagged for a closer look

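The tumor change differed between kidney and liver, by the test of the difference itself, for 3 of the 9 enzymes. The kidney change minus the liver change was -1.38 for Psat1, 1.31 for Shmt1 and 1.19 for Gldc (log2). Psat1 rose in both organs, while Shmt1 and Gldc fell in liver tumors and did not pass in kidney tumors. Leaving out the kidney tumor arrays with Xist signal, the Shmt1 difference alone was called.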

How the results depend on the processing

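Each result was recomputed on the compared groups alone, with quantile normalization, with centred arrays, without the dimmest genes, with other uses of probe sets, with another variance prior, with the replicate number as a block and with each array left out. Leaving out the tumor arrays with Xist was planned for kidney and added for liver after the data were seen. The count of members called stayed within 1.5 times in every one of these runs but 2, both for the difference between organs: it was 3, and 1 without kidney tumors 2 and 3, and 5 with kidney tumor 1 and liver tumor 1 as the only tumors, where Mthfd1 turned to -0.45. Where 1 tumor array remained, it was assumed to vary like the other groups. The cause was not tested. With a replicate block the counts were 8 for secondary and 6 for primary kidney tumors against normal kidney, 5 between the tumors, 8 in liver, 3 for the difference and 5 between normal tissues, as without it, and no call of a member changed. The deviations of same-numbered arrays from their group means correlated at -0.278 to 0.272 and were over 0.1 for every number in no pair of groups, so the numbers were not taken to pair the samples. Between kidney and liver tumors the correlations were 0.272, 0.253 and 0.00381 for numbers 1, 2 and 3, and numbers 2 and 3 carried Xist in both. Without single arrays the counts were 6 throughout for primary kidney tumors, 8 for secondary kidney tumors and for liver tumors, 5 to 6 between the kidney tumors, 3 to 4 for the difference and 4 to 5 between normal tissues. Psph passed in secondary kidney tumors with centred arrays (-0.41, adjusted p 0.0176) and quantile normalization (-0.37, adjusted p 0.042), and Mthfd2 between the kidney tumors with centred arrays (-0.49, adjusted p 0.0462). Over all genes, calls numbered 5715 without kidney tumors 2 and 3 and 9922 with them for primary kidney tumors, and 5862 without liver tumors 2 and 3 and 10419 with them for liver tumors. For the difference they numbered 1692 without kidney tumors 2 and 3, 2218 without all 4 arrays and 3350 with them. With no detection p, a level near the low end cannot be told from background, and differences there are compressed.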

Other observations

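Liver tumor 1, the liver tumor with no Xist signal (5.88), had the highest level of the 3 liver tumors for each of the 9 members, among them Gldc at 11.01 against 10.67 and 10.09 and Shmt1 at 10.54 against 10.28 and 9.79 in liver tumors 2 and 3. Its summed hepatocyte intensity was 94420, against 68202 and 68857. Kidney tumor 1 had no Xist signal (5.60) and the highest tubule sum of its group (42950, against 34371 and 21917). It had the lowest level of its group for Phgdh, Psph, Shmt1, Mthfd1 and Mthfd2 and the highest for Psat1. For Shmt2, kidney tumors 1 and 2 both read 10.78. Liver tumor 1 and kidney tumor 1 are each 1 array, and nothing was tested between single arrays.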
